A study of Mus musculus with 19 samples.

Results

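Endothelial cells line blood vessels, and 10 genes that mark them are described here in brain RNA: Kdr, Cdh5, Pecam1, Cldn5, Flt1, Tek, Tie1, Pcdh12, Gkn3 and Ly6c1. They were chosen by name and matched to the deposited tables by Ensembl identifier, and they are 10 of the 49671 genes listed there. All 10 were among the 23973 genes that passed the filter on low values, a normalised count of at least 10 in at least 3 libraries. A normalised count is the number of reads in a gene divided by 1 size factor per library.

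RNA was sequenced from brain homogenate that had been enriched for microglia, with 1 library for each of 19 mice. HEM mice carry a transgene on the X chromosome in which the murine Thy-1 promoter, active mainly in neurons, drives full-length human wild-type alpha-synuclein, and WT mice are their controls. Both have the B6D2F1/J background, and the labels give neither sex nor a batch or date, so that any batch that ran with age cannot be told apart from it. The groups were 8 HEM and 4 WT mice aged 13 months, and 4 HEM and 3 WT mice aged 3 months. Libraries held 63.3 to 95.8 M reads in genes for HEM at 13 months, 93.2 to 124.5 M for WT at 13 months, 74.7 to 112.9 M for HEM at 3 months and 83.0 to 106.8 M for WT at 3 months. The 10 genes together took 0.0661% to 0.429% of the reads in genes, and a single gene had between 57 reads (Pcdh12) and 100777 reads (Flt1) in a library. Microglial markers were high: the median of 8 of them lay between 14690.0 and 47683 normalised counts per kilobase of exon over the libraries, against 908 to 4945 for the median of the 10 endothelial genes. Other cells were also well represented. On the same scale the median of 6 erythroid markers ran from 22710.5 to 121682, and that of 6 choroid plexus markers from 3580 to 14202. On the first principal component of all tested genes, HEM animal 1 at 13 months (-130.3) and HEM animal 3 at 3 months (-68.4) lay outside the range of the other 17 libraries (-33 to 63.2). HEM animal 11 at 13 months lay within it (7.92) and close to others of its group. It was left out together with those in an alternative chosen with earlier results known, and counts of called genes are also given without these 3 libraries.

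Brain endothelial cells form the blood-brain barrier, with tight junctions that seal the gaps between cells and transporters that carry nutrients across. Their survival and sprouting depend on vascular endothelial growth factor, read by the receptors that Kdr and Flt1 encode, and on the angiopoietins, read by the Tek receptor with its partner Tie1. In bulk RNA such as this, fewer endothelial cells in a sample and less RNA per endothelial cell cannot be told apart.

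Transcription factors of the ETS family, which bind sites with a GGAA core, are well known regulators of endothelial genes. The 250 bases before the start of transcription were therefore read from RefSeq's table (GRCm38.p6), which matched 7 of the 10 genes. The windows of Flt1, Kdr, Tek and Gkn3 are shown because these genes share the course over age described below. Flt1 has 2 matches to the longer ETS motif AGGAAG, and Kdr, Tek and Gkn3 match neither AGGAAG nor CGGAAG. The GGAA core alone, on either strand, is also in the windows of Kdr, Tek and Gkn3. They are written 5′ to 3′, the last base lies just before the start, and capitals mark AGGAAG or CGGAAG on either strand.
Kdr, chr5:75978456-75978705, minus strand: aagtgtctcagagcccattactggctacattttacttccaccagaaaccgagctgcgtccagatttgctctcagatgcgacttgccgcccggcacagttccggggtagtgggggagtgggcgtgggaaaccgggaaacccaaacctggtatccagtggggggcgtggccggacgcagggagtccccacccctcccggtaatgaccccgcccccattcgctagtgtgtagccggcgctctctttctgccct
Flt1, chr5:147726012-147726261, minus strand: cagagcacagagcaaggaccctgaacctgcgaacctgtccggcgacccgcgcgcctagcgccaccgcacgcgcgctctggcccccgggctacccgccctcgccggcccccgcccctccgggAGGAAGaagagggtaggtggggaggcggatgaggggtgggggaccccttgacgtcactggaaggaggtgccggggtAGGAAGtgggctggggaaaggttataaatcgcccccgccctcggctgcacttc
Tek, chr4:94739039-94739288, plus strand: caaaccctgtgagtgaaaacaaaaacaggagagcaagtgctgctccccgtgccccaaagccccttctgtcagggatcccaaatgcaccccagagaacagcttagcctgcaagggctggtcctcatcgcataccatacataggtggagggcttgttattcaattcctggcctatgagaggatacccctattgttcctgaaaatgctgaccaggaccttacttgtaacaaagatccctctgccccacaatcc
Gkn3, chr6:87388936-87389185, minus strand: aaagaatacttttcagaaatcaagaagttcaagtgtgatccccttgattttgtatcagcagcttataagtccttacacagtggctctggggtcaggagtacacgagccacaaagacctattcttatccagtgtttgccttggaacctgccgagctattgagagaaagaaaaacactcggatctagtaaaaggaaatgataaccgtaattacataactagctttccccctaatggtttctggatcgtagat
The Flt1 matches begin 129 and 53 bases before its start. In Tie1 an AGGAAG began 219 and a CGGAAG 232 bases before the start, within a window of which 212 bases are exon of another Tie1 transcript. One of the 2 Ly6c1 starts had AGGAAG beginning 126, 38 and 34 bases before it, the last pair overlapping. In the window of that start 83 bases are annotated Ly6c1 exon. The other Ly6c1 start had none of these matches. Cldn5 had none. In all 3 of the 7 genes held AGGAAG or CGGAAG, where 39.2% of all 32851 promoter windows of the same length do (29.5% for AGGAAG and 13.6% for CGGAAG). The forkhead motif GTAAACA and the SOX motif ACAATGG, held by 3.17% and 3.02% of all windows, were found in none of the 7. A match is a description of the letters and not a bound site.

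Across age, the 10 genes were lower on average at 13 than at 3 months in both genotypes. The mean normalised count of each of the 10 was higher at 3 months in WT and in HEM. In WT the median log2 fold change of the 10 genes at 13 against 3 months was -1.17, and in HEM it was -1.15, where the median over all 23973 tested genes was -0.011 and -0.0045. The WT and HEM comparisons share no library. Markers of blood cells were also lower in old WT mice, with medians of -1.17 for 6 erythroid, -1.15 for 10 neutrophil and -0.86 for 8 monocyte genes, all of them below 0 and 0 called. In old HEM mice the same lists had medians of 0.16, 1.64 and 0.75, while 6 neuron markers had a median of -1.01 (6 of 6 below 0, 0 called), against -0.11 in WT. Their part in the endothelial values was not tested. Between HEM and WT the median log2 fold change of the 10 was 0.15 at 13 months and 0.14 at 3 months, and none of the 10 passed the test. Below, a gene is called changed where limma-trend gave it an adjusted p under 0.05 (Benjamini-Hochberg, all tested genes).

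**Figure D1:**
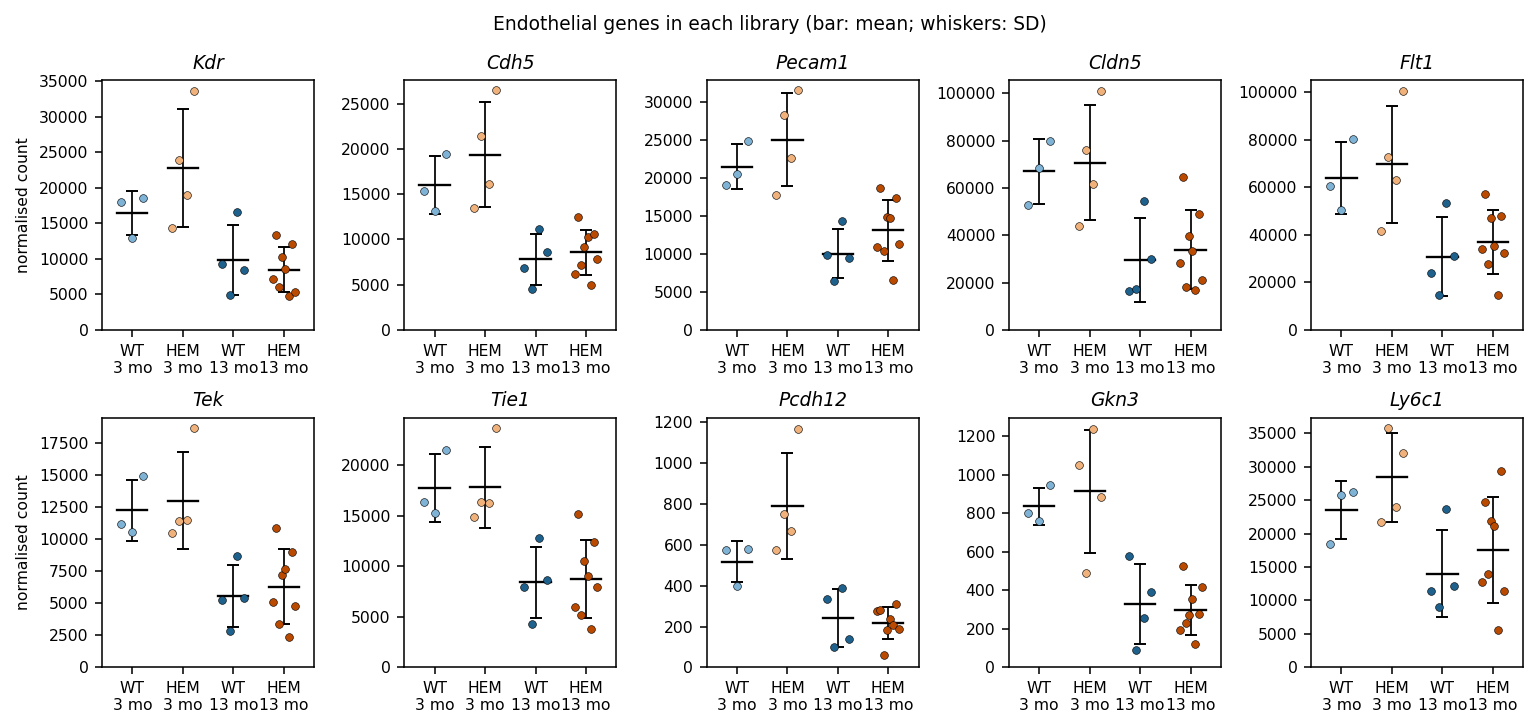
Normalised counts of the 10 endothelial genes (vertical axis, from 0) in each library, by genotype and age; each point is 1 mouse, bars are means and whiskers SD. In each panel both 3-month means lie above both 13-month means, and for Cdh5 and Pcdh12 no library at 13 months reaches the lowest at 3 months.

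Among the junction genes, Cdh5 encodes VE-cadherin, the main adhesion molecule between endothelial cells (ENSMUSG00000031871, mm10 chromosome 8, 104101625 to 104144511). At 3 months its normalised counts were 15402, 13157 and 19465 in WT and 13446, 21434, 16117 and 26502 in HEM. At 13 months WT had 6897, 4473, 11138 and 8662, and HEM ran from 5001 through a median of 8499.6 to 12492. The 7 young libraries were all above the 12 old ones. Cdh5 fell by 1.18 ± 0.25 (log2 fold change ± SE) in HEM (adjusted p = 0.0242). In WT the log2 fold change was -1.10 ± 0.31, which did not pass (adjusted p = 0.0879).

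Pcdh12 encodes a protocadherin of endothelial cell contacts (ENSMUSG00000024440, 6058 exon bases) and was the lowest of the 10 genes. Its normalised counts at 3 months were 572, 400.0 and 578 in WT and 574, 749.6, 669 and 1168 in HEM. At 13 months they were 334, 98.9, 391 and 140.5 in WT, and in HEM 60.3 at the lowest, 221 at the median and 312 at the highest. As for Cdh5, no old library reached the lowest young one, here WT animal 3. Pcdh12 fell by 1.93 ± 0.40 in HEM (adjusted p = 0.0210), a 3.82-fold difference, and its log2 fold change in WT was -1.30 ± 0.50 (adjusted p = 0.204).

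Pecam1, or CD31, is an adhesion molecule of endothelial contacts that platelets and leukocytes also carry (ENSMUSG00000020717, chromosome 11, 106654217 to 106750628). WT had 19084, 20520.4 and 24850.2 normalised counts at 3 months, and 9885, 6435, 14282 and 9528 at 13 months. HEM had 17731, 28223, 22633 and 31586 at 3 months, and from 6535 through 13068 to 18726 at 13 months. The ages did not overlap in WT, and in HEM the highest old library, animal 3, lay above the lowest young one. The log2 fold change was -0.97 ± 0.24 in HEM (adjusted p = 0.0514) and -1.15 ± 0.30 in WT (adjusted p = 0.0726), neither of which passed.

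Cldn5 encodes claudin-5, the sealing protein of brain endothelial tight junctions (ENSMUSG00000041378, a single exon on chromosome 16, 18776847 to 18778262). At 3 months the WT libraries had 52571, 68254 and 79952 normalised counts and the HEM libraries 43779.7, 76183, 61704 and 100975. At 13 months the WT libraries had 16324, 17102, 54644 and 30170.3, and the HEM libraries between 17020.2 and 64696 with a median of 30784. WT animal 8 and HEM animals 3 and 12 at 13 months reached into the young range of their genotype. The log2 fold change was -1.34 ± 0.45 in WT (adjusted p = 0.140) and -1.14 ± 0.36 in HEM (adjusted p = 0.116).

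Of the growth factor receptors, Kdr encodes VEGFR2, the main signalling receptor of vascular endothelial growth factor (ENSMUSG00000062960, chromosome 5, 75932827 to 75978458). Young WT mice had 17948, 12868 and 18549 normalised counts and young HEM mice 14323, 23966, 19032 and 33685. Old WT mice had 9210.1, 4949, 16637 and 8383, and old HEM mice from 4804 through a median of 7926 to 13334. The HEM ages did not overlap, while WT animal 8 at 13 months lay above WT animal 3 at 3 months. Kdr fell by 1.44 ± 0.31 in HEM (adjusted p = 0.0247), and its log2 fold change in WT was -0.86 ± 0.39 (adjusted p = 0.287). The difference between those changes, -0.58 with a 95% interval from -1.62 to 0.46, did not pass (adjusted p = 0.652).

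Flt1 encodes VEGFR1, which binds the same ligand with little signalling (ENSMUSG00000029648, chromosome 5, 147561604 to 147726011). In young mice its normalised counts were 60515, 50448 and 80252 for WT and 41735, 72571, 63185 and 100584 for HEM. In old mice they were 23735, 14648, 53411 and 31001 for WT, and for HEM 14618 at the lowest, 34638 at the median and 57104 at the highest. WT animal 8 and 3 HEM animals at 13 months lay above the lowest young library, HEM animal 1. The log2 fold change was -1.18 ± 0.42 in WT (adjusted p = 0.161) and -0.94 ± 0.34 in HEM (adjusted p = 0.164).

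Tek encodes the angiopoietin receptor Tie2, which holds vessels in a quiescent state (ENSMUSG00000006386, chromosome 4, 94739289 to 94874976). Its normalised counts at 3 months were 11220.3, 10611 and 14987 in WT and 10487, 11438, 11514 and 18702 in HEM. At 13 months they were 5270.3, 2804, 8740.4 and 5418 in WT, and 2386 to 10870.0 with a median of 6192 in HEM. The WT ages did not overlap, and 1 old HEM library, animal 3, lay above the lowest young HEM library. The log2 fold change was -1.24 ± 0.43 in WT (adjusted p = 0.154) and -1.16 ± 0.34 in HEM (adjusted p = 0.0940).

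Tie1 encodes the partner receptor of Tek (ENSMUSG00000033191, chromosome 4, 118471191 to 118490061), and followed it library by library, with a correlation of 0.987 over the 19 libraries, the closest of the 45 pairs. The young libraries had 16341, 15299 and 21522 normalised counts in WT and 14900.3, 16331, 16210.1 and 23691 in HEM. The old ones had 7934, 4290.2, 12798 and 8646 in WT, and in HEM ran from 3771 through 8473 to 15128. As with Tek, the WT ages did not overlap and HEM animal 3 at 13 months was the exception in HEM. The log2 fold change was -1.16 ± 0.39 in WT (adjusted p = 0.145) and -1.13 ± 0.32 in HEM (adjusted p = 0.0725).

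Gkn3 encodes a gastrokine that in mouse brain marks arterial endothelium (ENSMUSG00000030048, chromosome 6, 87383256 to 87388935). At 3 months it had 804, 762 and 944 normalised counts in WT and 1049, 489.6, 1239 and 882 in HEM. At 13 months it had 578, 91.5, 257 and 393 in WT, and 122 to 527 with a median of 272 in HEM. The WT ages did not overlap, and in HEM the old animal 3 lay above the young animal 3. Gkn3 fell by 1.66 ± 0.41 in HEM (adjusted p = 0.0495), and in WT its log2 fold change, the largest of the 10 there, was -1.62 ± 0.52 (adjusted p = 0.122).

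Ly6c1 encodes a small lipid-anchored surface protein that brain endothelial cells make in quantity (ENSMUSG00000079018, chromosome 15, 75044018 to 75048830). Its normalised counts at 3 months were 18452, 25718 and 26264 in WT and 21756, 35804, 24011 and 32028 in HEM. At 13 months they were 11356, 9051, 23592 and 12096 in WT, and in HEM 5551 at the lowest, 17519 at the median and 29326 at the highest. The ages overlapped in both genotypes, and the log2 fold changes, -0.83 ± 0.43 in WT (adjusted p = 0.373) and -0.82 ± 0.35 in HEM (adjusted p = 0.238), were the smallest of the 10.

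In HEM, then, 4 of the 10 genes fell with age (Pcdh12, Cdh5, Kdr and Gkn3) and none rose. Of all tested genes 1.62% were called in that comparison and 0.684% were called lower. The count was 4 with edgeR and 7 with DESeq2, which called 1.55% and 5.46% of all tested genes. It was 0 without the 3 libraries (0.847% of all), 0 without the 2 that lie outside the range (0.768%), and 0 without either HEM animal 4 (0.492%) or HEM animal 7 (0.68%) at 3 months. Without HEM animal 3 at 13 months it was 8 (2.7%), and without HEM animal 1 or 3 at 3 months it was 2 (0.259% and 1.09%). With the animal number as a replicate block it was 0, but that fit called 1 of 23973 genes and says nothing about these 10. Of the 4, Gkn3 kept its call in few fits: it was lost in 15 of the 19 fits that each left out 1 library, and Kdr, Cdh5 and Pcdh12 lost theirs in 3 each. In WT 0 of 10 were called, where 0.709% of all tested genes were, and 9 of the 10 (all but Ly6c1) had an unadjusted p under 0.05, as did 15.5% of all tested genes. There edgeR called 0 and DESeq2 2 of the 10 (0.43% and 5.08% of all). In WT limma called 1, Pecam1, without HEM animal 11 at 13 months or without the 3 libraries (0.859% and 1.07% of all).

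To use all 19 libraries on the question of age, the WT and HEM age differences were averaged in the same model, a comparison added after the values had been seen. In it 9 of the 10 genes fell, all but Ly6c1 (log2 fold change -0.82 ± 0.28, adjusted p = 0.116), where 2.98% of all tested genes were called and 1.5% were called lower. The changes ran from -1.06 ± 0.20 (Pecam1, adjusted p = 0.00857) to -1.64 ± 0.33 (Gkn3, adjusted p = 0.0132), a 2.08-fold and a 3.11-fold difference. The smallest adjusted p was that of Cdh5 (-1.14 ± 0.20, adjusted p = 0.00635). The median of the 10 was -1.15, at or below which lay 1.38% of all tested genes. Without the 3 libraries 7 were called (2.4% of all tested genes), without WT animal 1 or WT animal 5 at 3 months 4 (1.18% and 1.07%), and with the replicate block 0, as were 0 of all tested genes.

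**Figure D2:**
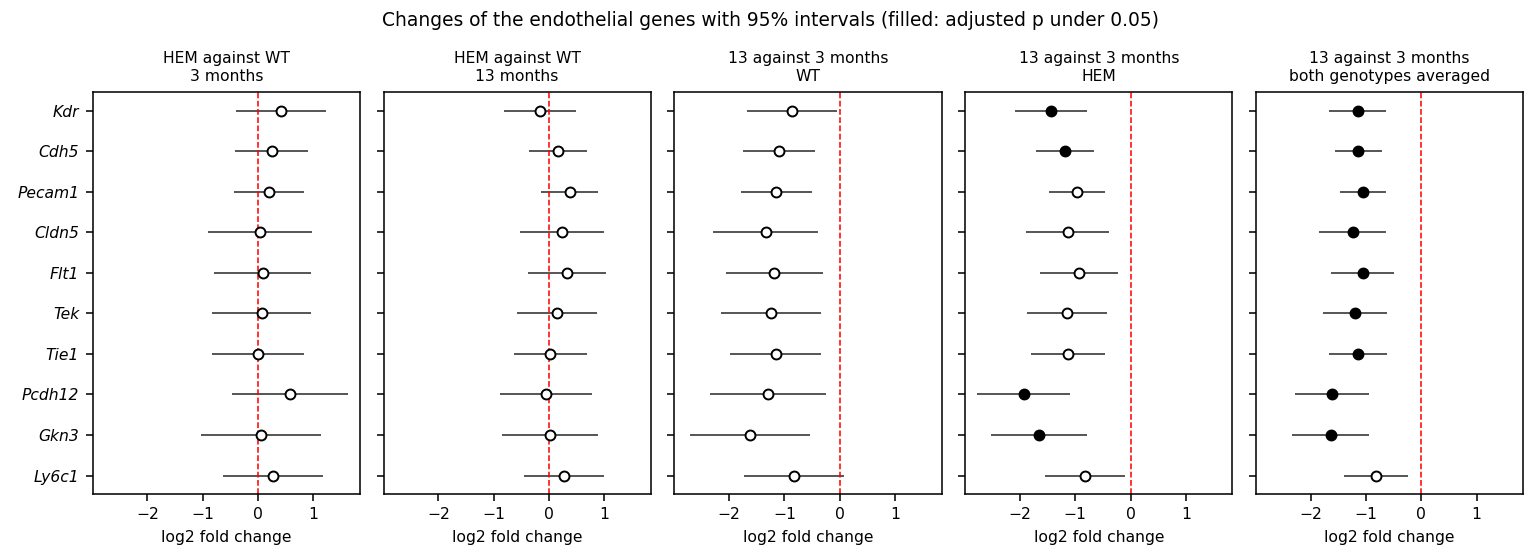
Log2 fold changes of the 10 genes (horizontal axis) with 95% intervals, in 5 comparisons; filled points have an adjusted p under 0.05. The 20 single-genotype age changes lie between -1.93 and -0.82, while each interval of the genotype comparisons includes 0.

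Libraries of the 2 ages did not overlap for Cdh5, Pecam1, Tek, Tie1, Pcdh12 and Gkn3 in WT, 6 of 10 genes, where 6.46% of all tested genes were lower at 13 months without overlap. In HEM this held for Kdr, Cdh5 and Pcdh12, 3 of 10, against 1.36% of all genes. Cdh5 and Pcdh12 were lower in all 12 old libraries than in all 7 young ones, as were 0.138% of all genes, 33 in number. Gkn3 joined both counts without HEM animal 3 at 3 months, making 4 of 10 in HEM (2.54% of all genes) and 3 of 10 over both genotypes (0.196%). Without the 3 libraries the counts were also 4 (4.12%) and 3 (0.288%).

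Whether the transgene went with a difference in these genes was asked at each age. At 13 months 0 of the 10 genes were called between HEM and WT, where 12.2% of all tested genes were. None had an unadjusted p under 0.05, as 24.9% of all tested genes did, and edgeR and DESeq2 also called 0, where they called 12.1% and 16.8% of all. Log2 fold changes of HEM against WT ran from -0.16 ± 0.31 (Kdr) to 0.37 ± 0.24 (Pecam1), and the 95% intervals reached from -0.89 (Pcdh12) to 1.03 (Flt1), so that none of them reached -1.15, the median age change in HEM. At 3 months 0 of the 10 genes were called, as were 0 of all tested genes (0%), with 0 of the 10 at an unadjusted p under 0.05 (3.85% of all) and 0 by edgeR or DESeq2. The values there ran from -0.0032 ± 0.39 (Tie1) to 0.58 ± 0.50 (Pcdh12), and the 95% intervals reached from -1.03 (Gkn3) to 1.62 (Pcdh12). The genotype effect itself did not differ detectably between ages. For this difference 0 of 10 genes and 0% of all tested genes were called, 0 of 10 had an unadjusted p under 0.05 (14.8% of all), and edgeR and DESeq2 called 0 of the 10, although DESeq2 called 938 genes in all. Libraries of HEM and WT overlapped for each of the 10 genes at both ages.

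The level of the genes relative to each other was compared per kilobase of exon. Cldn5 was highest in each group, at 47260 ± 9702 normalised counts per kilobase (SD, n = 3) in WT at 3 months and 20880 ± 12630 (n = 4) in WT at 13 months. Ly6c1 came next and then Flt1, with each library in that order in each group. Pecam1, Cdh5 and Tie1 followed in an order that changed between groups, and Pecam1 exceeded Cdh5 in 4 of 8 HEM libraries at 13 months. Tek and then Kdr came after them, at 2605 ± 503 and 1822 ± 346 per kilobase in WT at 3 months, with Tek above Kdr in 7 of 8 HEM libraries at 13 months and 3 of 4 at 3 months. Gkn3 was the ninth, and Pcdh12, at 85.3 ± 16.7 per kilobase in WT at 3 months, the tenth in each library.

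The 10 genes rose and fell together from library to library, also within a group. Over the 19 libraries the correlation of log2 levels had a median of 0.907 over the 45 pairs (range 0.619 to 0.987), and 0.863 (0.266 to 0.977) after each group's mean was taken out. These values describe the libraries and share their depth and normalisation. Pcdh12 and Gkn3 followed the others least, with median correlations to the other 9 of 0.556 and 0.476 after the group means were taken out, against 0.940 for Pecam1. WT animal 7 at 13 months was the lowest of its group for 9 of the 10 genes, HEM animal 11 at 13 months for 9 and HEM animal 1 at 3 months for 9. WT animal 8 at 13 months was the highest of its group for 9 genes, HEM animal 3 at 13 months for 8, HEM animal 7 at 3 months for 8 and WT animal 5 at 3 months for all 10. The coefficient of variation of the 10 genes within a group had a median of 19.1% in WT and 31.5% in HEM at 3 months, and 48.3% in WT and 40.5% in HEM at 13 months.

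**Figure D3:**
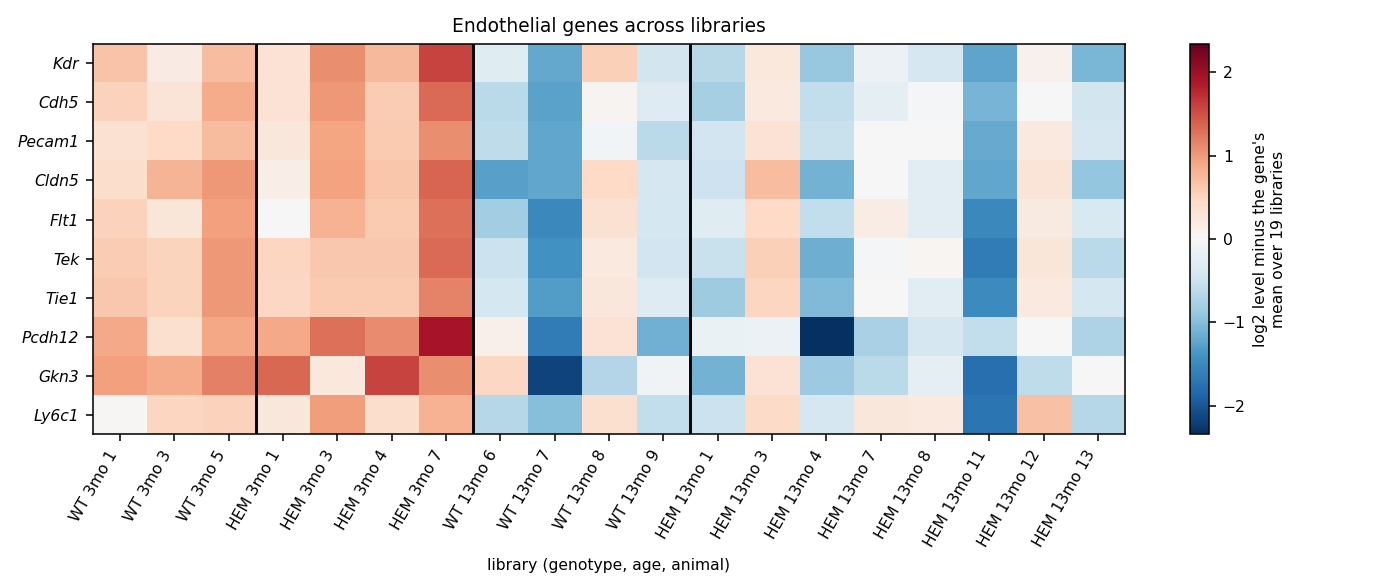
Log2 level of each gene (rows) in each library (columns, grouped by genotype and age), as the difference from the gene's mean over 19 libraries; red is above it and blue below. The 7 libraries at 3 months are above the mean for all 10 genes. At 13 months WT animals 7 and 9 and HEM animals 1, 4 and 11 are below it for all 10.

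The 8 other genes with the closest course, by the correlation of their log2 values over 19 libraries with the mean standardised profile of the 10, were Thsd1 (0.979), Dll4 (0.978), Robo4 (0.976), Ece1 (0.976), Mpzl1 (0.975), Scarb1 (0.974), Tmem204 (0.966) and Icam2 (0.965). They were picked from 16477 genes with a mean log2 level of at least 6, of which 84 had a correlation above 0.9, while the median was -0.036. Without the 2 libraries farthest from the middle, HEM animal 11 and WT animal 7 at 13 months, the 8 values were between 0.946 and 0.974. Dll4 (a Notch ligand), Robo4 (an endothelial guidance receptor) and Icam2 (an endothelial adhesion molecule) stand in the endothelial lists below, and Ece1 encodes the endothelin-converting enzyme. Scarb1 encodes a lipoprotein receptor. Since these genes were picked for following the 10, their own age changes are no further evidence.

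Other endothelial genes were counted in lists that do not overlap with the 10, using the comparison averaged over the genotypes and, as its background, the 1.5% of tested genes called lower. Of 25 further pan-endothelial genes 9 fell, 0 rose and 25 had a value below 0, with a median log2 fold change of -0.86. Eng, a co-receptor for transforming growth factor beta, fell by 0.77 ± 0.15 (adjusted p = 0.00935), and Mmrn2, an endothelial matrix protein, by 1.40 ± 0.29 (adjusted p = 0.0149). Within HEM alone 3 of the 25 fell, among them Eng and Cd34, and within WT alone 0 did. The transcription factor Fli1 had the one call of the list between genotypes, 0.40 ± 0.11 higher in HEM at 13 months (adjusted p = 0.0271). In that comparison 12.2% of all tested genes were called. Over age in HEM, Fli1 had a log2 fold change of 0.054 ± 0.11. Blood cell markers also rose in HEM against WT at 13 months, and their part in the Fli1 value was not tested.

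Of 20 blood-brain barrier genes 5 fell and 0 rose, with a median of -0.63. The 5 were Lsr and Bsg (-0.60 ± 0.13 and -0.50 ± 0.12), a tricellular junction protein and a companion of lactate carriers, and Abcb1a, Itm2a and Foxq1, the last 3 named after their values were seen. Of 9 arterial genes 4 fell and 0 rose, with a median of -0.69. They were Sema3g (-1.31 ± 0.25, adjusted p = 0.00948), Gja5, the gap junction protein connexin 40 (-1.40 ± 0.28, adjusted p = 0.0124), Fbln5, and Efnb2, named after its value was seen. Of 8 venous and activated endothelial genes 1 fell, the amino acid transporter Slc38a5 (-1.25 ± 0.26, adjusted p = 0.0172), and the median was 0.036. Of 6 fenestrated and lymphatic genes 1 fell, Plpp1 (-0.53 ± 0.10), with a median of -0.23.

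In a list around the Kdr, Flt1, Tek and Tie1 receptors, 3 of 15 genes fell and 0 rose, with a median of -0.48. It holds ligands and co-receptors of that pathway, and other endothelial genes such as the Notch ligand Dll4 and the apelin receptor Aplnr. The 3 that fell were Dll4, Aplnr (-1.53 ± 0.34, adjusted p = 0.0223) and, named after its value was seen, the co-receptor Nrp1. In HEM alone 3 fell, and one of them was Angpt2, an endothelial ligand of Tek (-1.29 ± 0.26, adjusted p = 0.0197). The ligand Vegfb was lower in HEM than in WT at 13 months, with a log2 fold change of -0.50 ± 0.10 (adjusted p = 0.00398). Of 11 junction genes, partners of VE-cadherin and other junction components, 1 fell, and the median was -0.23. It was Jup, which encodes plakoglobin (-0.42 ± 0.08, adjusted p = 0.0122). Between HEM and WT at 13 months, where 12.2% of all tested genes were called, the endothelial lists held 4 more calls. The tyrosine kinase Bmx of the arterial list was 1.31 ± 0.28 higher in HEM (adjusted p = 0.00554). Lcn2 of the venous and activated list, which neutrophils also make, was 1.89 ± 0.53 higher (adjusted p = 0.0248). A part of blood cells in both values was not tested. Ctnna1, which encodes alpha-catenin, had a log2 fold change of -0.47 ± 0.11 (adjusted p = 0.00931), and Plpp1 of -0.53 ± 0.13 (adjusted p = 0.0110). Ptprb and Esam stand in 2 of these lists each. Without the 3 libraries the average called 4 of the 25 further pan-endothelial genes and 2 of the 20 barrier genes lower (2.4% of all tested genes were called). It also called 4 of the 9 arterial genes and 2 of the 15 genes listed around the receptors lower. HEM alone, also without the 3 libraries, called 0 of the 25 and 0 of the 15 (0.847% of all). With the replicate block 0 genes of these lists were called, in fits that called at most 1 of all tested genes.

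Markers of other cells moved with some of these comparisons, and their part in the values above was not tested. Of 13 pericyte and smooth muscle markers 3 fell with age in the average (1.5% of all tested genes were called lower). They were Myh11 (-1.88 ± 0.31, adjusted p = 0.00405), Acta2 and Tagln, all of them smooth muscle genes. The same number fell in WT alone, where 0.709% of all tested genes were called. The 13 markers had medians of -0.38 in the average (10 below 0), -0.51 in WT (13 below 0) and -0.19 in HEM (7 below 0). Their summed normalised count ran from 164689 to 453266 in WT and 135070.0 to 295570.0 in HEM at 3 months, and from 114779 to 351215 in WT and 120343 to 397963 in HEM at 13 months. Of 8 microglia markers 0 were called in any of the 6 comparisons, with medians between -0.25 and -0.08. Of 6 astrocyte markers 3 rose in the average, Slc1a2 by 1.29 ± 0.21, where 2.98% of all tested genes were called. Of 10 immediate early genes, which respond fast to stimulation, 7 fell in the average and 6 in WT, where their sum was 542633 to 939052 at 3 months and 70285.6 to 343388 at 13 months. All 10 immediate early genes rose in HEM against WT at 13 months, with a median of 1.92, where 12.2% of all tested genes were called. Of 6 perivascular fibroblast, 6 erythroid, 6 neuron and 6 oligodendrocyte markers 0 were called in the average, with medians of -0.071, -0.50, -0.52 and -0.0086. Without the 3 libraries the average called 2 of the smooth muscle, 2 of the astrocyte and 6 of the immediate early genes (2.4% of all tested genes).

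**Figure D4:**
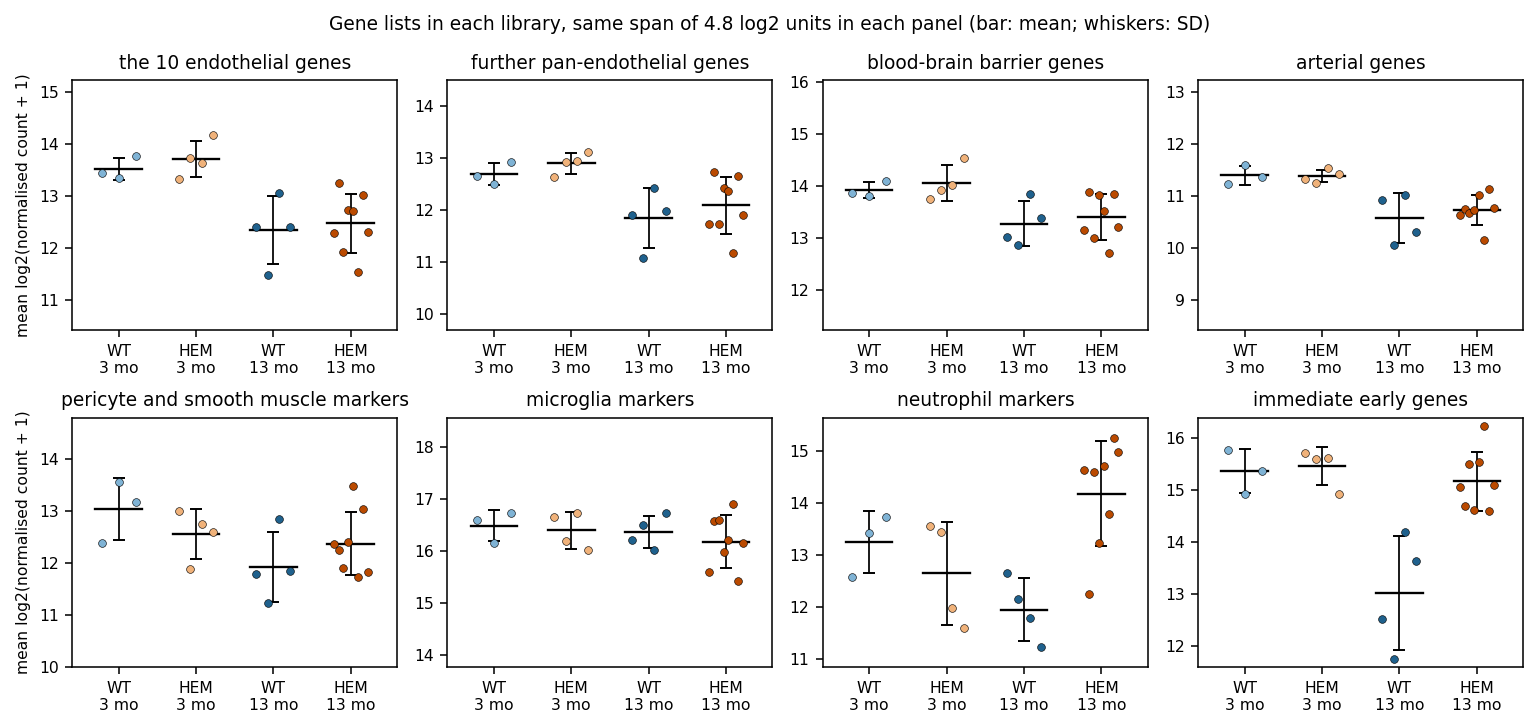
Mean log2 level of 8 gene lists (vertical axis, an equal span in each panel) by genotype and age; points are libraries, bars means and whiskers SD. The means of the 4 endothelial lists drawn are lower at 13 months in both genotypes, while neutrophil markers are high in HEM at 13 months and immediate early genes low in WT at 13 months.

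Between HEM and WT at 13 months, where none of the 10 genes was called, blood cell markers did differ. Of 10 neutrophil markers 9 rose (median 2.13), of 8 monocyte markers 6 (median 1.41) and of 9 platelet markers 6 (median 1.32), while all 6 choroid plexus markers fell (median -1.02). Of all tested genes 12.2% were called in that comparison. Without the 3 libraries the marker counts were 9, 5, 5 and 5 (10.3% of all tested genes). In HEM against age, 2 of 9 platelet markers rose, where 1.62% of all tested genes were called. Pecam1 is also made by platelets and leukocytes, and Ly6c1 has a near copy in monocytes. These 2 genes and Flt1 had the 3 highest of the 10 values in HEM against WT at 13 months (0.37, 0.27 and 0.33). Cldn5 came next at 0.23, none of these values was called, and a part of blood cells in them was not tested. No gene of these lists was at 0 in a library.

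Ly6c2, the monocyte gene next to Ly6c1 (ENSMUSG00000022584, chromosome 15, 75108158 to 75111970), is the member's closest relative. Of the 50-base windows of Ly6c1 transcripts 32.8% occur in another gene's transcripts and 21.5% in those of Ly6c2, so that reads there could be dropped or counted to either. For the other 9 genes the share was at most 0.998%. The promoter windows of the pair, one start of each, are shown because their genes took different courses: capitals mark bases that differ or have no partner in the alignment, in which 164 of 216 aligned bases (75.9%) are identical.
Ly6c1, chr15:75048838-75049087, minus strand: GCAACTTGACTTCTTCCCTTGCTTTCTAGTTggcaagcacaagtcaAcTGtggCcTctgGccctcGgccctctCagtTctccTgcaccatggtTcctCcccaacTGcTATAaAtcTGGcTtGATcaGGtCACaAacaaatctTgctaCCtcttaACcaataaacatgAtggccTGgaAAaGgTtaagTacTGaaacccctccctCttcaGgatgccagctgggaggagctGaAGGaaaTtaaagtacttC
Ly6c2, chr15:75111972-75112221, minus strand: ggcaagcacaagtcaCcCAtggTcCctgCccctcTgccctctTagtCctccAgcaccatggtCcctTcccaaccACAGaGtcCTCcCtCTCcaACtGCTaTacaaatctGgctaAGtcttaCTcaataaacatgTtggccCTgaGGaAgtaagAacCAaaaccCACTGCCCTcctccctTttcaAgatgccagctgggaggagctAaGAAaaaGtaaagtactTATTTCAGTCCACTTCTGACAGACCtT
Ly6c2 normalised counts were 3144, 3548 and 4435 in WT and 3715, 5478, 2295 and 2837 in HEM at 3 months. At 13 months they were 1881, 2685, 2065 and 1064 in WT, and from 3187 through a median of 5502 to 10681 in HEM. All 8 HEM libraries lay above all 4 WT libraries at 13 months, and Ly6c2 rose there by 1.65 ± 0.31 (adjusted p = 0.00285), while Ly6c1 had a log2 fold change of 0.27 ± 0.35 (adjusted p = 0.719).

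Ly6c1 followed the endothelial genes and Ly6c2 the monocyte genes. Over 19 libraries Ly6c1 correlated with the mean level of the other 9 endothelial genes with Pearson's r = 0.871 (permutation p = 1e-05, the smallest that the permutations can give, adjusted 2e-05) and Spearman's rho = 0.846 (permutation p = 3e-05, adjusted 6e-05). Without the 2 libraries farthest from the median r was 0.812, and after group means were taken out it was 0.843. Ly6c2 correlated with the other 7 monocyte markers with r = 0.910 (permutation p = 1e-05, adjusted 2e-05), rho = 0.923 (permutation p = 1e-05, adjusted 4e-05), and r = 0.883 without the 2 farthest. The crossed relations had r = -0.070 for Ly6c2 with the endothelial genes (permutation p = 0.775, rho = -0.111 with p = 0.653) and r = 0.0978 for Ly6c1 with the monocyte markers (permutation p = 0.692, rho = 0.160 with p = 0.512), their r without the 2 farthest being -0.161 and 0.108. All 4 relations were adjusted together. The permutations mixed libraries of all groups, so these p-values include differences between groups and do not measure agreement within them. The ratio of Ly6c1 to Ly6c2 had a median of 5.92 in WT and 8.50 in HEM at 3 months, and of 8.71 in WT and 2.97 in HEM at 13 months.

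**Figure D5:**
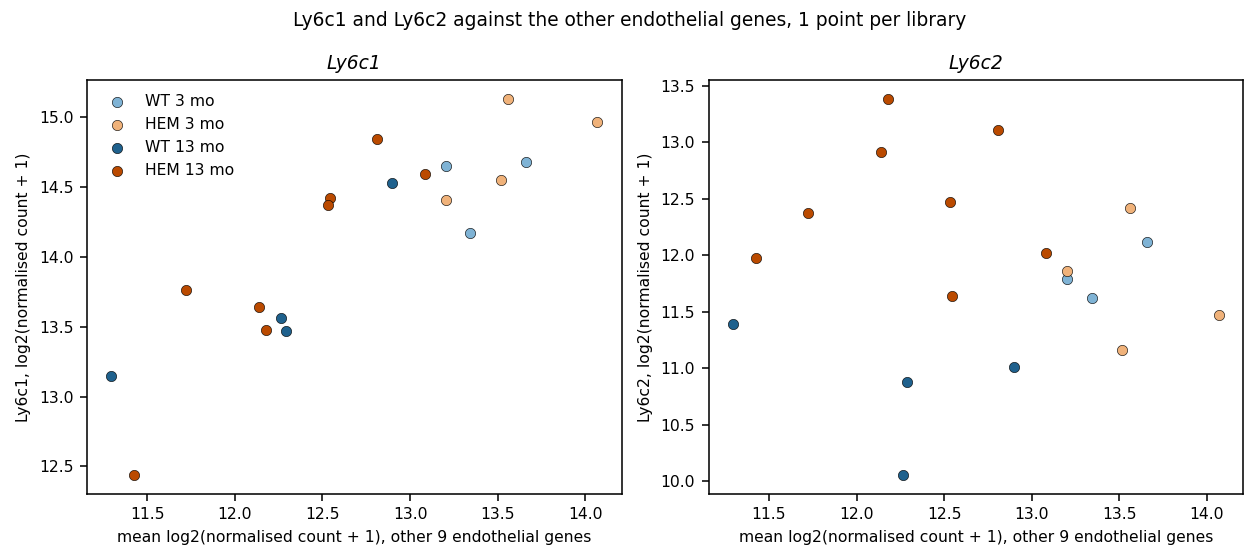
Log2 level of Ly6c1 (left) and Ly6c2 (right) against the mean log2 level of the other 9 endothelial genes; each point is 1 library, coloured by group. Ly6c1 follows the endothelial genes (r = 0.871), and Ly6c2 does not (r = -0.070).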

How the data were processed

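Total RNA from microglia-enriched brain homogenate of 19 mice was extracted with AllPrep columns and made into libraries with NEBNext Ultra II, per the labels' protocols. The submitters' processing notes name mm10 as the build and Trimmomatic, HISAT2, featureCounts and DESeq2 as tools; versions, strand setting and annotation are not given in the sources used here. The deposited values are a signal, reads per gene over a size factor of their library. The values themselves show this, since 100% of them are whole multiples of 1 step in their library (tolerance 0.01), which also recovers the counts of reads behind the deposited values. No column was left unmapped.

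Symbols, coordinates and exon lengths came from GENCODE M21. Genes reaching a value of 10 in 3 or more libraries were tested with limma-trend in its robust form (R 4.3.3, limma 3.58.1) on log2(value + 1), two-sided, in 1 model of 4 groups, with Benjamini-Hochberg adjustment. That scale understates changes of low genes. Genotypes were compared within each age, ages within each genotype, and the genotype effects with each other. An age difference averaged over the genotypes was added after the values were seen. Alternatives were DESeq2 1.42.0 and edgeR 4.0.16 on the recovered reads, TMM scaling, pseudocounts of 0.5 and 10, a low filter at 50 or none, a fit of the 2 compared groups only, the animal number as a replicate block, each library left out, and 3 libraries left out together (HEM animals 1 and 11 at 13 months, HEM animal 3 at 3 months). Leaving out the 2 of these lowest on the first component was added after seeing the data. The limma step was tested on simulated data.

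The 10 genes, the other 19 lists and the comparisons were chosen with earlier results of these data known. Named genes were the 10, Ly6c2, in each list and comparison the 2 called genes with the smallest p (or 1 where none was called), and the 8 most alike in course. Lists are described by counts and medians, without a test. Permutation p-values used 100000 permutations over all 19 libraries, without regard to group.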

Additional observations from a re-analysis of the deposited data

Results flagged for a closer look

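In HEM at 3 months the highest library stood far from the other 3 for a pair of genes, in both cases animal 7. Tek had a normalised count of 18702 there, and the next highest library had 11514. Tie1 had 23691, and the next highest had 16331. These were 2 of 33 groups examined (11 genes, Ly6c2 included, in the 3 groups of 4 to 8 libraries), and chance alone marks about 1 in 20. Tek and Tie1 are correlated, so the pair is not independent. Without this library 0 of the 10 genes were called in HEM at 13 against 3 months (0.68% of all tested genes). In the average over the genotypes 7 were called without it (2.48% of all).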

How the results depend on the processing

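All age changes of the 10 genes kept their negative sign under every alternative run. The counts of called genes moved. In HEM at 13 against 3 months, 4 became 7 with DESeq2, 0 with the replicate block, 0 without the 3 libraries, 0 without the 2 lowest on the first component (chosen after seeing the data), and 0 to 8 with each library left out in turn. In WT, 0 became 2 with DESeq2 and 1 without the 3 libraries, and was 0 to 1 with each library left out. In the average, 9 became 0 with the replicate block, 6 with no low filter (1.06% of the 41090 genes tested there), and 4 to 9 with each library left out. The labels do not say whether equal animal numbers pair the libraries. Same-numbered libraries of different groups had deviations correlated from -0.0675 to 0.173 (median 0.022, 11 pairs). Pairs with other numbers ran from -0.204 to 0.265 (median -0.0048, 117 pairs), and 5 of 13 libraries correlated best with their own number. These values do not decide whether the numbers pair the libraries. The block fit called at most 1 of all tested genes in a comparison, so calls lost under it say nothing particular about these 10. Counts were otherwise within 1.5 times. For the other called genes named, no sign changed, and 265 alternatives lost a call while 1690 did not.

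Values near 0 changed sign, none of them called. At 13 months between genotypes, Gkn3 was -0.14 with edgeR and -0.14 with DESeq2, and with the replicate block Kdr was 0.27 and Pcdh12 0.30. With a library left out, Kdr ran from -0.45 to 0.14, Cdh5 from -0.080 to 0.36, Tek from -0.15 to 0.40, Tie1 from -0.26 to 0.26, Pcdh12 from -0.41 to 0.25 and Gkn3 from -0.50 to 0.38. At 3 months, Tie1 was 0.0020 with edgeR, 0.0050 with DESeq2, 0.22 with the replicate block and 0.030 without the 3 libraries or the 2, where Cldn5 was -0.024. With a library left out, Cldn5 ran from -0.16 to 0.24, Flt1 from -0.12 to 0.30, Tek from -0.12 to 0.22, Tie1 from -0.15 to 0.15 and Gkn3 from -0.12 to 0.33. For the difference of the genotype effects, the replicate block gave 0.22 for Cdh5 and 0.96 for Gkn3, and leaving out the 3 libraries or the 2 gave 0.17 or 0.040 for Cdh5. With a library left out, Cdh5 ran from -0.33 to 0.11, Pecam1 from -0.016 to 0.37, Cldn5 from -0.024 to 0.56, Flt1 from -0.060 to 0.56, Tek from -0.21 to 0.34, Tie1 from -0.26 to 0.27, Gkn3 from -0.56 to 0.33 and Ly6c1 from -0.17 to 0.29. The cause was not tested. Only the 2-group fit was not run for the average and the difference, which need 4 groups. Depth limits Pcdh12 most, with 57 reads in the library where it had fewest.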
